A study of Mus musculus with 16 samples.

Results

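Amacrine cells are the inhibitory interneurons of the inner retina, and 8 genes that mark them were followed through cells sorted for a rod reporter. The genes are Tfap2a, Tfap2b, Ptf1a, Gad1, Gad2, Slc32a1, Slc6a9 and Calb2. They were chosen by name, as known amacrine cell genes, and all 8 were among the 32166 genes of the deposited gene table. All 8 also passed the filter on low values, a level of at least 1 CPM (read counts scaled to library size) in at least 2 libraries, which left 15202 genes. The cells came from mouse retinal organoids, aggregates that build layered retina in a dish, and these started either from embryonic stem cells (ESC) or from induced pluripotent stem cells (iPSC). Both sources carried the Nrlp-GFP transgene, in which the promoter of the rod gene Nrl drives green fluorescent protein, and the GFP+ cells were flow-sorted for RNA sequencing.

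The 16 libraries fell into 10 groups by source and day of differentiation. ESC organoids gave 3 libraries at day 18, 3 at day 21 and 1 each at days 25, 28 and 35. Those from iPSC gave 2 libraries at day 18, 1 at day 21, 2 at day 25 and 1 each at days 28 and 35. The ESC clones came from blastocysts of the transgenic mice. The iPSC clones came from their embryonic fibroblasts, infected with doxycycline-inducible lentiviral Oct3/4, Sox2, Klf4 and c-Myc. Cells of passage 15 to 25 entered a modified SFEBq culture at 5% O2 from day 0 to day 10 and 20% O2 afterwards. The culture notes place retinoic acid from day 14 to day 26 in one sentence and 500 nM retinoic acid with 1 mM taurine in the day 10 medium in another, for all groups alike. Organoids were kept many to a dish, and whether the libraries of a group came from separate differentiations or clones is not given, and p-values then reflect only how these libraries vary, which may be technical.

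An amacrine cell is made when the transcription factor PTF1A directs a retinal precursor cell towards the horizontal and amacrine fates. The AP-2 factors encoded by Tfap2a and Tfap2b act after PTF1A. Most mature amacrine cells release GABA, made by the glutamic acid decarboxylases of Gad1 and Gad2, or glycine, which they recover with the transporter of Slc6a9. The transporter of Slc32a1 loads both transmitters into synaptic vesicles, and Calb2 encodes calretinin, a calcium buffer of amacrine and ganglion cells. None of the genes is exclusive to the amacrine cell: horizontal cells use Ptf1a and the AP-2 factors, forebrain interneurons use the GABA genes, Müller glia can express Slc6a9, and surface ectoderm expresses the AP-2 factors.

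A sequence comparison is needed to read the Gad1 values, because most Gad1 signal was assigned to a transcript that lacks the exon with the start codon. Gad1 lies on chromosome 2 of GRCm38 (chr2:70553072-70602014, plus strand). The non-coding transcript Gad1-206 begins in a first exon of its own (chr2:70566377-70566453, 77 bases), whereas the protein-coding transcript Gad1-201 enters the next shared exon (starting at 70567186) from its second exon. The coding part of that exon is at chr2:70563832-70563910 (79 bases). In the sequences of the GENCODE transcripts below, small letters give those distinguishing exons, and capitals give the first 20 bases of the shared exon.
Gad1-206: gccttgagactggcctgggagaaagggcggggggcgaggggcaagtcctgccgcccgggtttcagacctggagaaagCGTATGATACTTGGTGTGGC
Gad1-201: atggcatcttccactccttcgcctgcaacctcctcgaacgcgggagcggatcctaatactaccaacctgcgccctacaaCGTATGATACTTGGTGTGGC
Gad1-206 has 16 exons and Gad1-201 has 17, of which 14 have the same bounds in both. Reads from those 14 exons cannot tell the transcripts apart, so the split between them is an estimate made by kallisto, the authors' quantifier.

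Stretches before the start sites of both decarboxylase genes are shown because the data set Gad1 apart from Gad2. RefSeq promoter windows of 250 bases (GRCm38.p6) were matched for 7 of the 8 genes, with 10 windows in all. They were searched on both strands for GCCNNNGGC, the palindrome bound by AP-2 factors, and for TAATCC, the core site of the photoreceptor factor CRX; these motifs do not overlap each other in the windows shown. GCCNNNGGC occurred in 13.7% of 32851 windows of that length and TAATCC in 6.25%. Gad2 held GCCNNNGGC at 2 places, 242 and 121 bases before the RefSeq start, and Gad1 held TAATCC on the minus strand 203 bases before it. Neither motif was found in the windows of Tfap2a, Tfap2b, Ptf1a, Slc32a1 and Slc6a9. The following lines give the part of each window upstream of the annotated start of Gad1-201 (chr2:70561879-70562041) and of Gad2-201 (chr2:22622077-22622204), on the plus strand, with the motif in capitals. The second Gad2 match lies beyond that part.
Gad1: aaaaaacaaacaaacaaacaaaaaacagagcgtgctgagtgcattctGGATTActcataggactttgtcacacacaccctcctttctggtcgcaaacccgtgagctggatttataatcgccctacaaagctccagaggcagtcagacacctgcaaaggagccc
Gad2: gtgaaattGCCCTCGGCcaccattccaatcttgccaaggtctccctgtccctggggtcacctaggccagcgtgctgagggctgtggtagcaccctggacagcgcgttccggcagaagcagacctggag
A match is a description of the letters only.

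Some libraries stood apart before any amacrine gene was considered. Nrl was at 17.7 and 15.99 CPM in the day 18 libraries ESC 1 and iPSC 1. The remaining libraries of that day held 136 to 881 CPM of it, and later ones up to 1921 CPM. The proliferation gene Mki67 was at 406 and 463 CPM in that low-Nrl pair. The mean of 3 Y-linked genes (Ddx3y, Eif2s3y, Uty) was 0.927 CPM in the day 18 library ESC 1 against 25.6 to 73.8 CPM in the other 8 ESC libraries. It was 42.2 CPM in the day 18 library iPSC 2 and 11.5 CPM in the day 25 library iPSC 1, against 0.626 to 1.48 CPM in the other 5 iPSC libraries. The estimated counts held in the deposited transcript table, which is cut off and so holds part of each library, were 2573023 to 14454287. A single count was worth 0.0377 to 0.215 CPM, and 3 counts, the limit that a value of 0 allows, were worth 0.113 to 0.644 CPM, for counting error only.

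Ptf1a (chr2:19445663-19447501, plus strand; ENSMUSG00000026735.2), the factor at the head of the amacrine pathway, was at its highest at day 18 and was listed at 0 in both day 35 libraries. At day 18 it was at 7.44, 0 and 6.78 CPM in ESC libraries 1 to 3 and at 8.38 and 2.47 CPM in iPSC libraries 1 and 2. At day 21 it was at 1.56, 1.21 and 0.214 CPM in ESC and 0.836 CPM in iPSC. Later libraries held 0.879 (ESC) and 0.798 and 0.212 CPM (iPSC) at day 25, and 3.57 (ESC) and 0.218 CPM (iPSC) at day 28. Thus 3 of the 5 day 18 libraries were above every later library, iPSC 2 was above all but the ESC library of day 28, and ESC 2 was at 0. The day 18 mean was 5.01 ± 3.60 CPM (SD, n = 5). With 3 counts over both day 35 libraries as the limit (0.0877 CPM), the level there was at least 57.1-fold below that mean. This bound covers counting error at day 35 only and leaves out the spread of the day 18 libraries. The fitted log2 difference was -2.19 (SE 0.75), which did not pass the threshold of an adjusted p of 0.05 (limma, Benjamini-Hochberg adjusted p = 0.0878). Without the day 18 library ESC 2, in which Ptf1a was at 0, the fitted difference was -2.77 and passed (limma, adjusted p = 0.00691), where 12% of all genes were called. It passed after no other single removal.

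Tfap2b (chr1:19208914-19238576, plus strand; ENSMUSG00000025927.13), one of the AP-2 factors of postmitotic amacrine cells, spanned 159-fold over the libraries. It was at 25.6, 14.6 and 22.03 CPM in the ESC libraries of day 18 and at 29.5 and 26.5 CPM in the iPSC ones. At day 21 it was at 17.9, 3.09 and 0.678 CPM in ESC libraries 1 to 3 and at 1.76 CPM in iPSC. Day 25 gave 2.03 CPM (ESC) and 6.25 and 2.87 CPM (iPSC). The sources then lay far apart, with 24.3 against 1.80 CPM at day 28 and 70.9 against 0.445 CPM at day 35 for ESC and iPSC. The highest and the lowest of all 16 values were therefore both from day 35.

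Tfap2a (chr13:40715302-40738376, minus strand; ENSMUSG00000021359.16), its paralog, followed it library by library. Its day 18 values were 6.17, 3.51 and 7.43 CPM (ESC) and 4.49 and 8.68 CPM (iPSC). At day 21 it was at 4.67, 1.77 and 1.10 CPM (ESC) and 2.18 CPM (iPSC), and at day 25 at 2.49 CPM (ESC) and 2.95 and 1.60 CPM (iPSC). ESC and iPSC were at 9.53 and 1.31 CPM at day 28 and at 11.7 and 0.576 CPM at day 35. The ESC libraries of days 28 and 35 were above every day 18 library, and the iPSC libraries of those days were below every one. Over the 16 libraries Tfap2a and Tfap2b had a Pearson r of 0.945 on the log2(CPM + 1) scale.

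**Figure D1:**
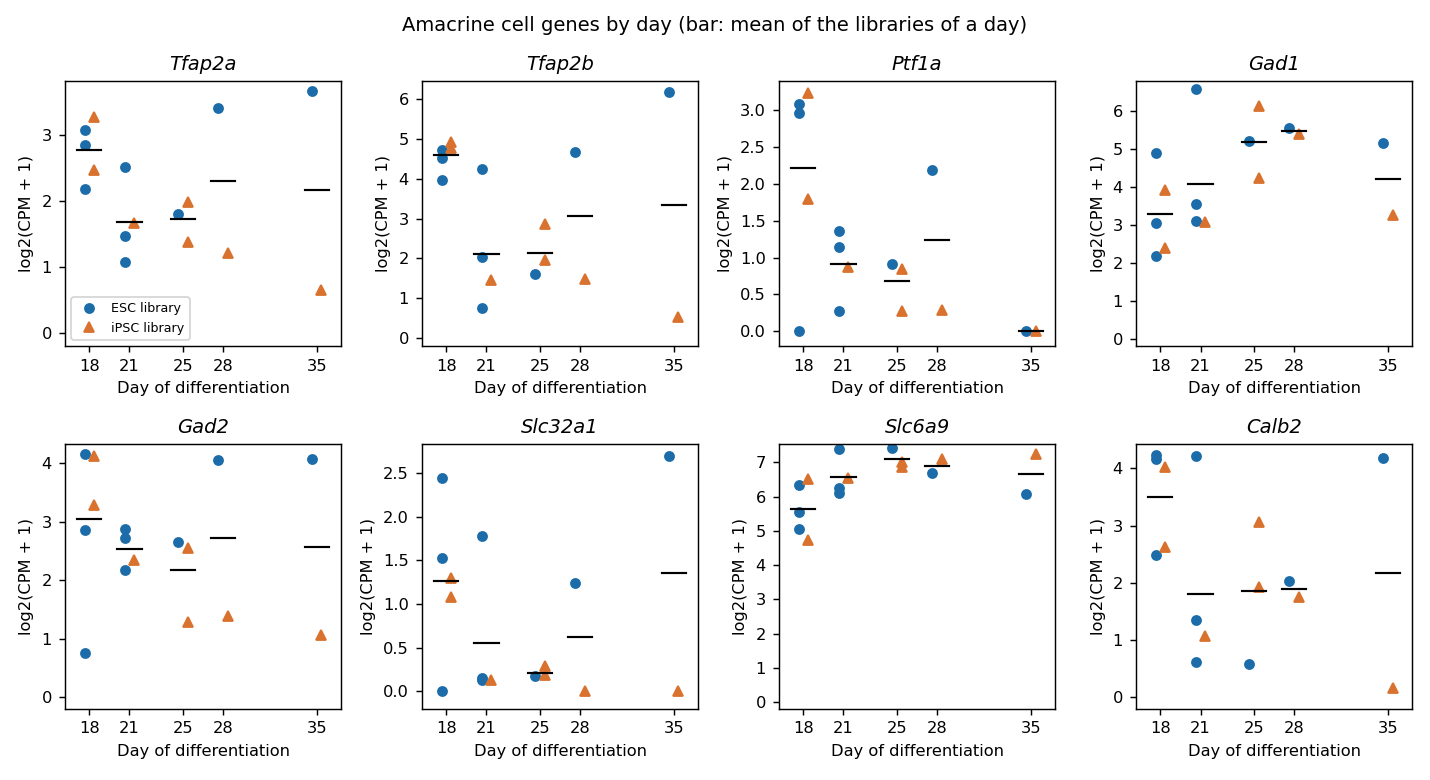
Level of each of the 8 genes, as log2(CPM + 1), against day of differentiation, with 1 point per library (circles ESC, triangles iPSC) and a bar at the mean of each day. At day 35 the ESC library was high and the iPSC library low for Tfap2a, Tfap2b, Gad2, Slc32a1 and Calb2, Ptf1a was at 0 in both, and Slc6a9 was at 25.4 CPM or more in every library.

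The 2 decarboxylases of GABA synthesis did not run together. Gad2 (chr2:22622205-22693874, plus strand; ENSMUSG00000026787.3), which makes GABA at nerve terminals, was at 16.95, 0.692 and 6.28 CPM in the ESC and at 16.4 and 8.77 CPM in the iPSC libraries of day 18. It was at 5.61, 6.37 and 3.51 CPM (ESC) and 4.07 CPM (iPSC) at day 21, and at 5.32 CPM (ESC) and 4.88 and 1.44 CPM (iPSC) at day 25. At day 28 it was at 15.6 CPM in ESC and 1.61 CPM in iPSC, and at day 35 at 15.9 and 1.10 CPM. The low-Nrl pair of day 18 and the ESC libraries of days 28 and 35 were the 4 highest. Part of the Gad2 CPM of the ESC libraries of day 21 (number 3) and day 25 came from the short non-coding transcript Gad2-202, at 0.716 and 0.798 TPM (a level scaled by transcript length and library size) beside 0.585 and 1.57 TPM of the coding Gad2-201.

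Gad1 (ENSMUSG00000070880.10), which makes the larger cytoplasmic GABA pool, was lowest where Gad2 was highest at day 18. It was at 3.53, 28.4 and 7.31 CPM in the ESC libraries and at 4.25 and 13.98 CPM in the iPSC libraries of that day. Day 21 gave 7.53, 10.8 and 94.0 CPM (ESC) and 7.47 CPM (iPSC), and day 25 gave 36.1 CPM (ESC) and 17.8 and 69.0 CPM (iPSC). Both sources were alike at day 28, at 45.5 and 40.8 CPM, and at day 35 ESC was at 34.9 CPM and iPSC at 8.50 CPM. The day 28 libraries lay above all 5 of day 18, while the days 21, 25 and 35 overlapped with day 18. The correlation of Gad1 with Gad2 over the 16 libraries was r = -0.344, given as a description.

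Gad1-206, the transcript without the start-codon exon, held 44.4 to 87.4% of Gad1 TPM, with a median of 70.0%. It was above 50% in 13 of 16 libraries and above Gad1-201 in 16 of 16. Estimated counts behind it ran from 27.5 to 617 per library. The coding Gad1-201 was listed at 0 TPM in the day 18 libraries ESC 1, ESC 2 and iPSC 1 and in the day 25 library iPSC 2, and reached 16.2 TPM in the day 21 library ESC 3. In that library Gad1-206 was at 42.7 TPM, and in the day 25 library iPSC 2 it was at 43.5 TPM. Another 2 transcripts had a mean of at least 0.5 TPM, Gad1-205 (protein-coding, 2.14 TPM) and Gad1-203 (a target of nonsense-mediated decay, 0.720 TPM). On this scale per length the mean level of all Gad1 transcripts was 22.5 TPM, against 3.30 TPM for Gad2.

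**Figure D2:**
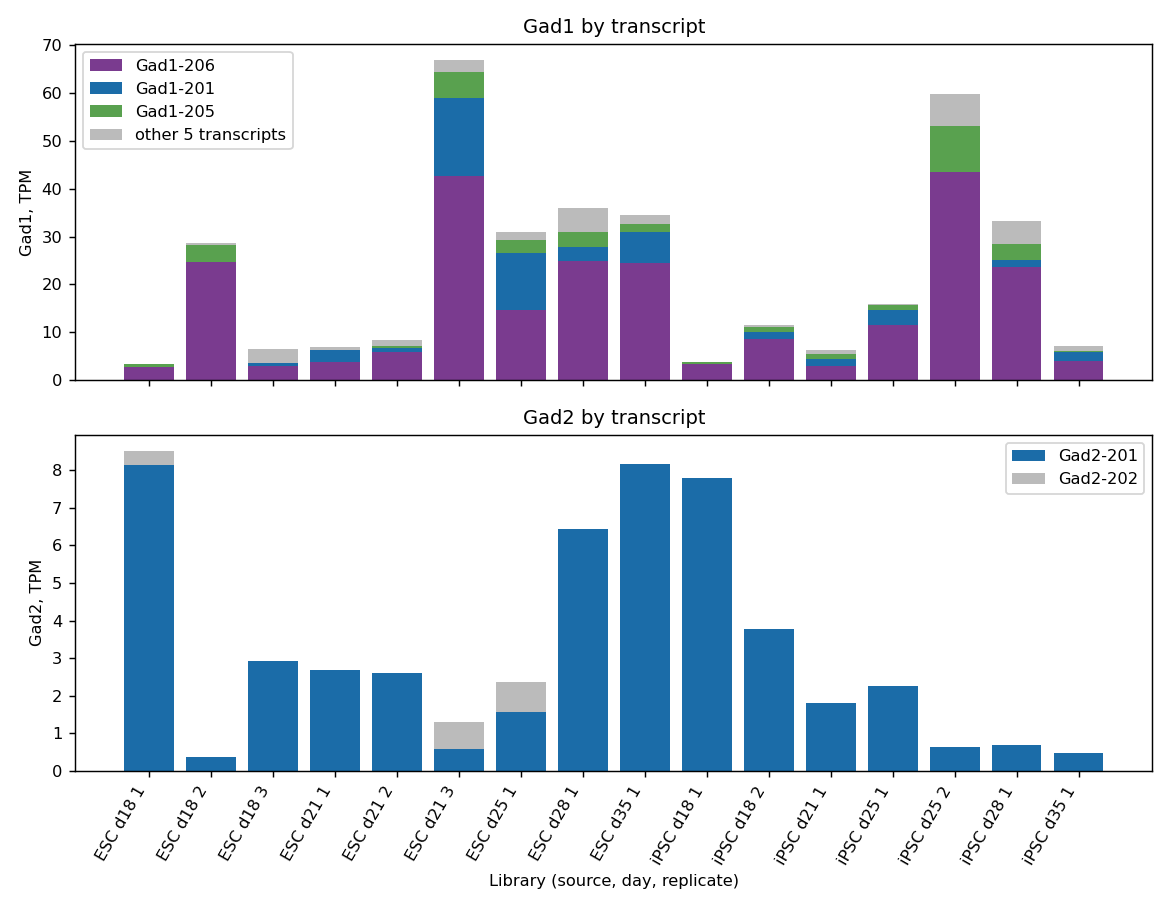
Stacked TPM of the transcripts of Gad1 (top) and Gad2 (bottom) in each library, named by source, day and replicate. The Gad1-206 part is taller than the Gad1-201 part in 16 of 16 libraries, and Gad2-202 adds to Gad2 in 3 libraries.

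The vesicular transporter gene Slc32a1 (chr2:158610767-158615748, plus strand; ENSMUSG00000037771.11) was low throughout, with a mean of 1.19 CPM. It was at 1.87, 0 and 4.45 CPM (ESC) and 1.11 and 1.47 CPM (iPSC) at day 18. At day 21 only the ESC library 1, with 2.44 CPM, was above 0.2 CPM, and the others held 0.096 and 0.110 CPM (ESC 2 and 3) and 0.0952 CPM (iPSC). ESC and iPSC were at 1.36 and 0 CPM at day 28 and at 5.51 and 0 CPM at day 35, and the day 25 libraries held 0.129 to 0.219 CPM. In 9 libraries the value was under what 3 counts are worth in that library, with an estimated count of 0 in 3 of them and of 1 or 2 in 6. Gad1 was at 7.47 to 94.0 CPM in those 9 libraries.

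Calb2 (chr8:110137502-110168210, minus strand; ENSMUSG00000003657.9) was at 17.7, 4.58 and 16.8 CPM (ESC) and 15.3 and 5.15 CPM (iPSC) at day 18. It was at 17.6, 1.54 and 0.529 CPM (ESC) and 1.11 CPM (iPSC) at day 21, and at 0.498 CPM (ESC) and 7.31 and 2.79 CPM (iPSC) at day 25. Day 28 gave 3.07 and 2.37 CPM, and day 35 gave 17.2 CPM in ESC and 0.124 CPM in iPSC. Its 5 values above 15 CPM came from 3 day 18 libraries and from 1 ESC library each of days 21 and 35.

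Slc6a9 (chr4:117834506-117875198, plus strand; ENSMUSG00000028542.17), the glycine transporter GlyT1, was at 25.4 CPM or more in every library. Its day 18 values were 32.4, 46.2 and 80.4 CPM (ESC) and 25.4 and 90.8 CPM (iPSC). Day 21 gave 67.8, 75.2 and 166 CPM (ESC) and 93.1 CPM (iPSC). At day 25 it was at 169 CPM (ESC) and 117 and 128 CPM (iPSC), above every day 18 library. ESC and iPSC were at 103 and 136 CPM at day 28 and at 67.2 and 152 CPM at day 35. The other glycine transporter gene, Slc6a5 (GlyT2), was at most 1.74 CPM in any library, and is named here after its values were seen.

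The 8 genes formed no single pattern. Tfap2b had r = 0.870 with Calb2 and 0.830 with Slc32a1, and Tfap2a had r = 0.846 with Slc32a1 and 0.748 with Gad2. Ptf1a was closest to Gad2 (r = 0.704). Slc6a9 ran against Calb2 (r = -0.728) and Tfap2b (r = -0.703), and its one positive relation was with Gad1 (r = 0.626). These are descriptions over 16 libraries, which share their depth and sorting, and carry no test.

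**Figure D3:**
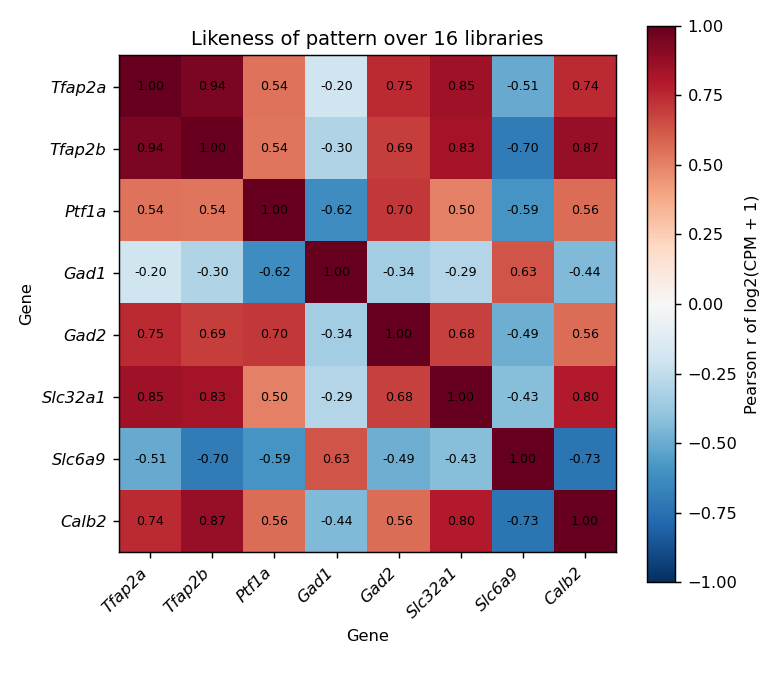
Pearson r of log2(CPM + 1) over the 16 libraries for each pair of the 8 genes (blue negative, red positive). Tfap2a, Tfap2b, Slc32a1, Calb2, Gad2 and Ptf1a are positively related to each other, and Gad1 and Slc6a9 are negatively related to those 6 and have r = 0.626 with each other.

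Among 11040 genes with a mean of at least 5 CPM, those most like each gene differed in kind. The genes nearest to Tfap2b were Dock1 (r = 0.958), Colgalt2 (0.953) and Sema5a (0.950), and Tfap2a was nearest to Tfap2b itself, then Tagln2 (0.942) and Colgalt2 (0.932). Genes close to Gad2 were Rtkn2 (r = 0.942) and Dapl1 (0.938). Ptf1a was nearest to Cux1 (r = 0.963), Dnph1 (0.955) and Cenpa (0.942), the last a centromere histone. Calb2 was nearest to the neuronal cytoskeleton genes Tubb4a (r = 0.964), Stmn4 (0.964) and Mapt (0.962), and Slc32a1 to the bipolar cell channel gene Trpm1 (0.901), Rph3a (0.874) and Col9a1 (0.857). Slc6a9 was nearest to Agpat3 (r = 0.981), Impdh1 (0.978) and Ccdc24 (0.974), and Gad1 less closely to Tsnax (0.899), B3galt2 (0.877) and Srr (0.874).

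Against Nrl, the gene whose promoter drives the sorted reporter, Slc6a9 and Gad1 were positively related and the other genes negatively. How many of all tested genes relate to Nrl as strongly was not measured, so these relations are not shown to be particular to the 8. Over 16 libraries Slc6a9 had r = 0.936 and Spearman's rho = 0.894, each with a permutation p of 1e-05, the smallest that 100000 resamples can give (two-sided; adjusted over 8 relations, 8e-05 for both). Without the low-Nrl pair, which lay farthest from the median of Nrl, r was 0.848 over 14 libraries (permutation p = 0.00017, adjusted 0.00136). It was 0.885 within ESC and 0.984 within iPSC libraries. Slc6a9 thus kept its correlation with Nrl without that pair. The values within sources still include the low-Nrl library of each source, and r without it was not computed there. For all 8 genes the permutations shuffled libraries freely across days and sources. A relation to Nrl and a shared change with day therefore cannot be told apart here.

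None of the other relations passed after adjustment without the low-Nrl pair. Gad1 had r = 0.733 (permutation p = 0.00078, adjusted 0.00312) and rho = 0.794 (0.00042, adjusted 0.00168), and r = 0.587 without the pair (adjusted permutation p = 0.0801). Within ESC and iPSC its r was 0.851 and 0.685. Calb2 had r = -0.684 (permutation p = 0.0024, adjusted 0.0048), rho = -0.685 (0.00428, adjusted 0.0114) and r = -0.611 without the pair (adjusted permutation p = 0.0801), with -0.704 in ESC and -0.660 in iPSC.
Ptf1a had r = -0.738 (permutation p = 0.0015, adjusted 0.004), rho = -0.563 (0.0249, adjusted 0.0332) and r = -0.431 without the pair (adjusted permutation p = 0.141), with -0.593 in ESC and -0.908 in iPSC. Tfap2b had r = -0.581 (permutation p = 0.0157, adjusted 0.0252), rho = -0.638 (0.00915, adjusted 0.0183) and r = -0.541 without the pair (adjusted permutation p = 0.097), with -0.500 in ESC and -0.645 in iPSC. Leaving out the pair moved the r of Tfap2b less than that of Ptf1a.
Gad2 (r = -0.514; permutation p = 0.0402, adjusted 0.0536), Tfap2a (r = -0.426; 0.1, adjusted 0.102) and Slc32a1 (r = -0.418; 0.102, adjusted 0.102) did not pass by Pearson's r. By rank, Gad2 had rho = -0.535 (permutation p = 0.0344, adjusted 0.0393), Tfap2a -0.571 (0.0222, adjusted 0.0332) and Slc32a1 -0.442 (0.0886, adjusted 0.0886). Without the pair r was -0.167, -0.475 and -0.467 in that order (adjusted permutation p = 0.567, 0.122 and 0.122). Within ESC and iPSC, r was -0.182 and -0.829 for Gad2, -0.340 and -0.463 for Tfap2a, and -0.348 and -0.568 for Slc32a1. In sorted bulk cells, fewer cells of a type and less RNA per cell cannot be told apart.

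**Figure D4:**
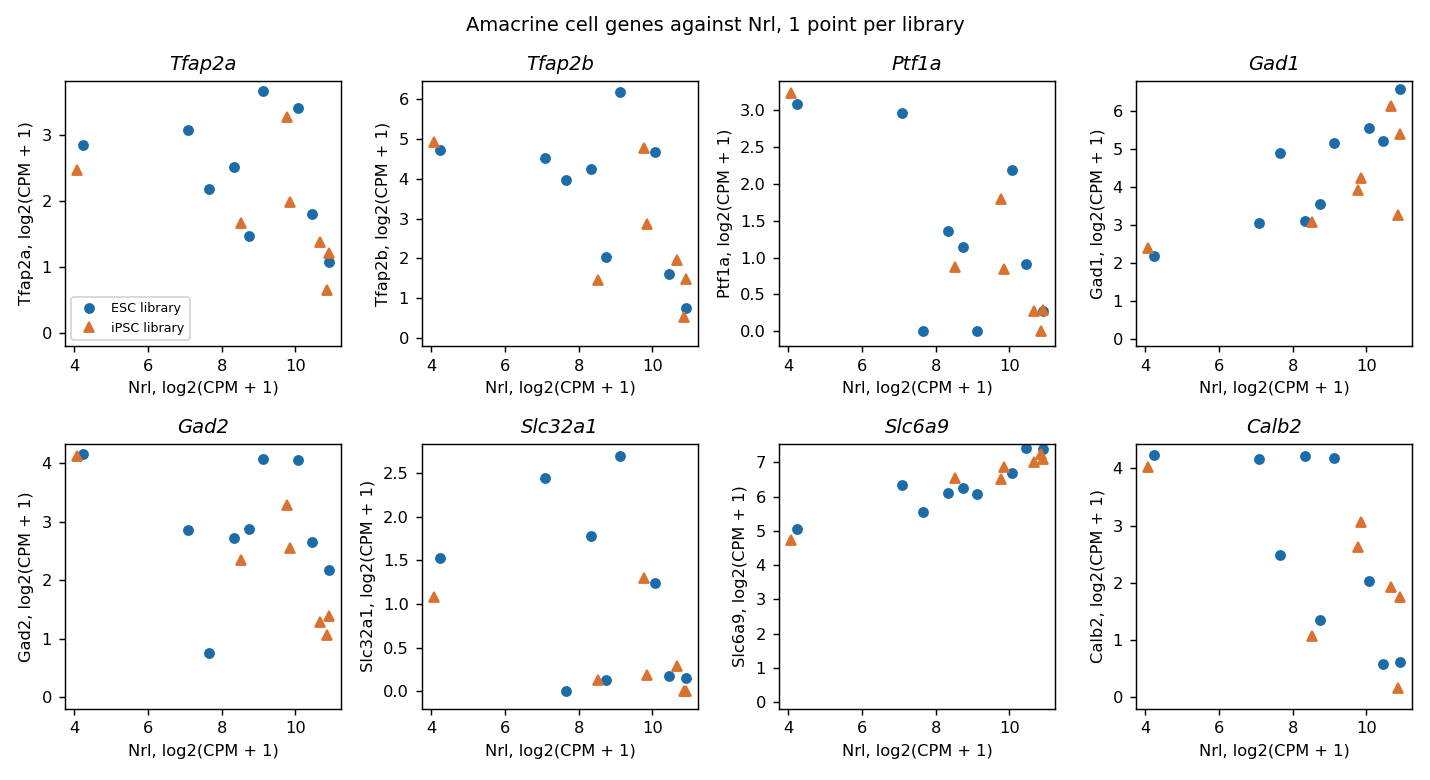
Level of each gene against Nrl, both as log2(CPM + 1), with 1 point per library (circles ESC, triangles iPSC). Slc6a9 lies along a rising line (r = 0.936), and the 2 leftmost points of every panel are the low-Nrl day 18 libraries ESC 1 and iPSC 1.

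By limma on all 16 libraries, the reported fit, no change with day passed the test for any of the 8 genes. For day 35 against day 18, 0 of 8 were called by limma, where 7.53% of the 15202 genes were called, and 1 of 8 (Ptf1a) had an unadjusted p under 0.05, where 25.3% of all genes did. On estimated counts summed per gene from the transcript table, which hold 5 of the 8 genes, edgeR and DESeq2 each called Ptf1a alone (adjusted p = 0.0379 and 0.000156). On those sums edgeR called 7.31% of 8466 genes, and DESeq2 called 17.4% of 8239 genes, with no adjusted p for Gad1. The median log2 difference of the 8 was -0.47 against 0.05 over all genes, with 3 higher and 5 lower. Tfap2b had a fitted difference of -1.13 with a 95% interval from -3.60 to 1.35, and Calb2 -1.27 (-3.57 to 1.03). These intervals span many-fold changes in both directions. Without the ESC library of day 35 the fitted difference of Tfap2b was -3.83, and without the iPSC library it was 1.43, so that 1 library set its direction.

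For day 28 against day 18, 0 of 8 were called (0.579% of all genes), and 2 had an unadjusted p under 0.05 in limma (22% of all genes). These were Gad1, at 2.24 (SE 0.91, adjusted p = 0.186), and Slc6a9, at 1.24 (SE 0.49, adjusted p = 0.174). For day 25, 0 of 8 were called (0.0395% of all genes) and 3 had an unadjusted p under 0.05 in limma (24.4% of all genes), namely Slc6a9 (1.43, adjusted p = 0.1), Gad1 (2.08, adjusted p = 0.153) and Ptf1a (-1.49, adjusted p = 0.190). For day 21, 0 of 8 were called, as were 0% of all genes, and 4 had an unadjusted p under 0.05 in limma (18.8% of all genes). Those 4 were Tfap2b (-2.63, adjusted p = 0.217), Slc6a9 (0.95, adjusted p = 0.235), Tfap2a (-1.19, adjusted p = 0.251) and Ptf1a (-1.32, adjusted p = 0.260). At these 3 days edgeR called 0 of 5 genes (0.52, 0.295 and 0% of all genes at days 28, 25 and 21). DESeq2 called 0 of the 3, 4 and 3 genes that it gave an adjusted p (7.58, 10.4 and 1.17% of all genes). Days 21, 25, 28 and 35 share the day 18 libraries as their reference.

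With day as a number, 0 of 8 slopes were called by limma (12.1% of all genes), and Ptf1a (-0.11 per day, adjusted p = 0.0956) and Slc6a9 (0.066 per day, adjusted p = 0.166) had an unadjusted p under 0.05 (28.8% of all genes). Without the ESC library of day 35, Slc6a9 passed (0.11 per day, limma adjusted p = 0.0291), where 22.1% of all genes were called. Without the day 18 library ESC 2, in which Ptf1a was at 0, Ptf1a passed (-0.13 per day, limma adjusted p = 0.0278), where 14.9% of all genes were called. No other single removal gave a call among the slopes of the 8 genes.

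**Figure D5:**
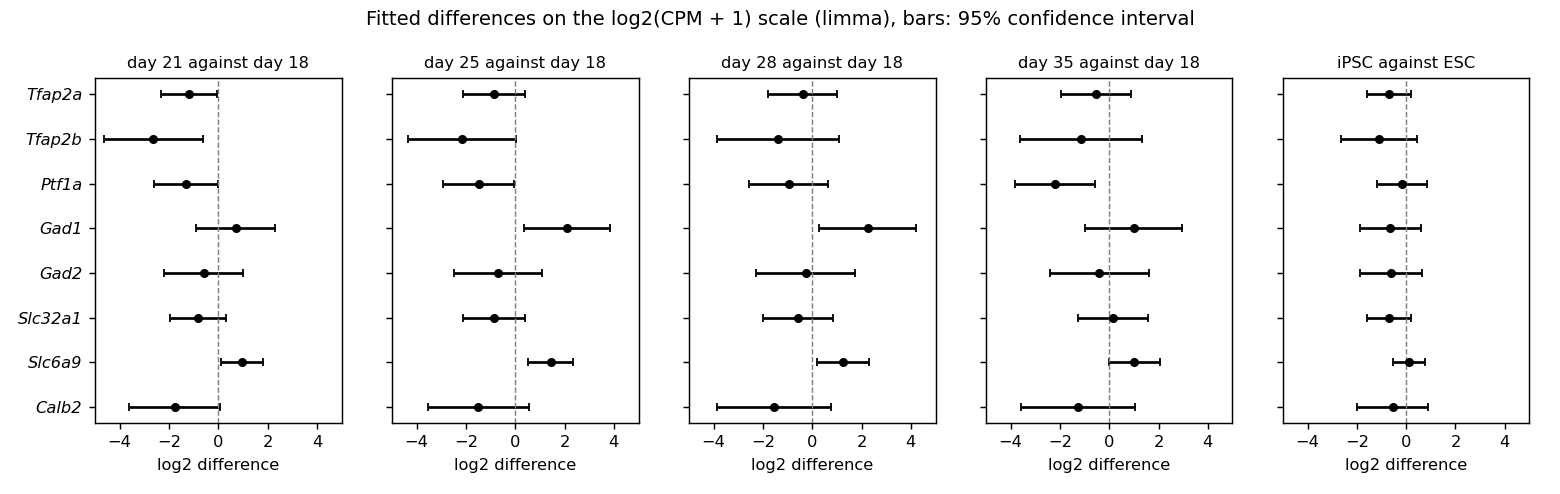
Fitted log2 differences from day 18 and between sources for the 8 genes (points), on the log2(CPM + 1) scale, with 95% confidence intervals from limma (bars). The intervals of Gad1 and Slc6a9 lie above 0 at days 25 and 28, that of Slc6a9 also at day 21, those of Tfap2a and Tfap2b lie below 0 at day 21 and that of Ptf1a at days 21, 25 and 35, and 0 of 8 pass after adjustment over all genes in any panel.

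The sources did not differ past the threshold. Between iPSC and ESC libraries, with day in the model, 0 of 8 genes were called by limma, as were 0% of all genes, and 0 of 8 had an unadjusted p under 0.05 (5.53% of all genes). The count was also 0 of 8 without the 2 day 18 libraries that went against their source in Y-linked genes, and 0 of 5 with edgeR and 0 of the 4 with an adjusted p with DESeq2. The fitted iPSC minus ESC difference was -1.10 for Tfap2b (95% interval -2.65 to 0.45) and 0.12 for Slc6a9 (-0.54 to 0.77), and the first interval includes a several-fold difference.

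The slope with day was more negative in iPSC than in ESC for 7 of the 8 genes. The difference of slopes was -0.26 per day for Gad2 (95% interval -0.42 to -0.10), -0.20 for Tfap2a (-0.33 to -0.07) and -0.34 for Tfap2b (-0.60 to -0.08). None passed after adjustment over all genes (limma, adjusted p = 0.443, 0.443 and 0.517; 0 of 8 called, 0% of all genes), and these 3 had an unadjusted p under 0.05 (8.11% of all genes). Within the iPSC libraries alone the slopes of Tfap2a (-0.13 per day), Tfap2b (-0.23) and Gad2 (-0.16) passed (limma, adjusted p = 0.0335, 0.0327 and 0.0335; 3 of 8, where 13.6% of all genes were called). Within the ESC libraries alone 0 of 8 did (0.0404% of all genes).

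The ESC library of day 35, the highest in Tfap2a, Tfap2b and Slc32a1, also carried genes of other cell types. The bipolar cell receptor gene Grm6 was at 78.8 CPM there and at most 1.23 CPM in the other 15 libraries. The 10 bipolar cell markers summed to 727 CPM there and to 742 CPM in the iPSC library of day 35, although 9 of the 10 were higher in the ESC library. Otx2 was the exception, at 649 CPM in the iPSC library, the larger part of its sum, and at 311 CPM in the ESC library. The glial water channel gene Aqp4 was at 222 CPM against at most 29.2 CPM elsewhere. Summed over 9 Müller glia markers the level was 1335 CPM, against 103 CPM in the iPSC library of that day. Epithelial genes of surface ectoderm, which also uses AP-2 factors, appeared in it as well, with Krt5 at 85.9, Krt14 at 15.7, Trp63 at 11.97 and Cdh1 at 49.9 CPM, against at most 0.135, 0, 0.196 and 3.52 CPM in the other libraries (these 4 genes are named after their values were seen). The 12 neural crest and surface ectoderm markers summed to 260 CPM there and to 82.7 CPM in the iPSC library, and 7 of the 12 had their highest value there. Other epithelial genes of that list were not raised in it: Krt18 was at 23.7 CPM against 62.7 CPM in the iPSC library of day 35 and up to 126 CPM elsewhere, and Epcam at 9.12 against 14.7 and up to 35.9 CPM. The part of these cells in the amacrine gene values was not tested.

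The day 18 library ESC 2 differed from the other day 18 libraries in the opposite way. Ptf1a and Slc32a1 were at 0 and Gad2 was at 0.692 CPM, with Tfap2b at 14.6 and Gad1 at 28.4 CPM. Foxn4, the progenitor factor that acts upstream of Ptf1a, was at 4.80 CPM, where the rest of that day held 44.6 to 116 CPM. Cabp5, of bipolar cells, was at 93.0 CPM and Slc17a6, the vesicular glutamate transporter of ganglion and bipolar cells, at 264 CPM, both the highest of the 16 libraries (named after their values were seen). Other markers of those cells did not follow, with Grm6 at 0.637, Trpm1 at 3.81 and Pou4f2 at 0 CPM. The bipolar cell markers summed to 762 CPM, within the 393 to 1790 CPM of the other day 18 libraries. Otx2 was at 622 CPM in ESC 2 and at 322 to 1690 CPM in those libraries, the larger part of each sum. The ganglion cell markers summed to 310 CPM, of which Slc17a6 was the larger part.

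Some genes that act around the 8 in amacrine development fell by the end of the series. Of 37 amacrine fate and subtype genes, 28 passed the filter, and at day 35 against day 18 limma called 4 lower and 0 higher (2.99% and 4.54% of all genes), with a median log2 difference of -1.72 against 0.05 over all genes. Foxn4 fell by 4.78 on the log2 scale (SE 1.24, adjusted p = 0.0358), and Barhl2, a factor of amacrine and ganglion cells, fell by 1.95 (SE 0.55, adjusted p = 0.0488). Foxn4 acts in dividing progenitors, and Mki67 fell by 4.41 on the same scale (SE 1.19, adjusted p = 0.0408). With day as a number limma called 4 slopes lower and 0 higher (5.29% and 6.81% of all genes), among them those of Foxn4 and the progenitor factor Neurog2.
These counts depended on single libraries. At day 35 the count was 0 without the low-Nrl pair, 0 without the pair of day 18 libraries that stood apart in Y-linked genes, 2 without the ESC library of day 35 and 0 without the iPSC library of day 35. The share of all genes called under these removals was 0.993, 4.16, 5.1 and 1.91%. The slope counts were 2, 3, 12 and 1 under the same removals, where 5.26, 6.91, 22.1 and 3.66% of all genes were called.

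Some genes that mark mature amacrine subtypes were near the limit of detection, and others were not. Chat, Slc18a3 and Slc5a7 of starburst cells were at most 0.283, 0.660 and 0.305 CPM, Th of dopaminergic cells at most 0.915 CPM and Vip at most 0.179 CPM, and are named after their values were seen. Most of these values are under or near the worth of 3 counts. Other amacrine subtype genes reached higher levels, with Slc17a8 at 0.811 to 13.6 CPM, Penk at 0.217 to 22.5 CPM and Sst at 0 to 12.4 CPM.

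Most other genes of inhibitory transmission did not pass the test. Of 26 listed, 25 passed the filter and limma called 1 higher and 0 lower at day 35 (4.54% and 2.99% of all genes), Gabrr1, a GABA receptor subunit known from bipolar cells (log2 difference 2.89, SE 0.59, adjusted p = 0.0162). It was at 24.6 CPM in the ESC and 1.13 CPM in the iPSC library of day 35 and at most 0.865 CPM in the other libraries. The median of the 25 was -0.03 against 0.05 over all genes. The count was 0 without the low-Nrl pair and 0 without the iPSC library of day 35, and 4 without the ESC library of day 35 (0.993, 1.91 and 5.1% of all genes).

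Markers of other cells that use the same genes were measured beside them. Of the horizontal cell markers 7 of 8 were tested and 1, Onecut1, fell at day 35, by 3.35 on the log2 scale (SE 0.54, limma adjusted p = 0.00549), and 0 were higher (2.99% and 4.54% of all genes). Lhx1, which defines horizontal cells, was between 0.0419 and 11.03 CPM. The 12 ganglion cell markers had 0 called at day 35 in limma (7.53% of all genes), and 6 had an unadjusted p under 0.05 (25.3% of all genes). Their summed levels were 74.8 to 310 CPM at day 18 and 37.5 to 89.6 CPM at day 35. Pou4f2, which defines ganglion cells, was at 18.0 and 20.4 CPM in the low-Nrl pair and 16.6 CPM in the day 18 library ESC 3, and at 0 in 6 libraries. The 11 forebrain inhibitory neuron markers summed to 9.59 to 123 CPM at day 18 and 8.03 to 19.3 CPM at day 35. The defining ventral forebrain factors Nkx2-1, Lhx6 and Gsx2 were at most 0.344, 0.811 and 0.364 CPM in any library, and are named after their values were seen. The part of horizontal and ganglion cells in the values of the 8 genes was not tested. Of the remaining lists at day 35, limma called 4 of 9 rod and 3 of 8 bipolar cell markers higher and 0 lower. It called 2 of 9 Müller glia markers higher and 1 lower. Lower were 3 of 12 progenitor markers and 1 of 7 cone markers, with 0 higher. Over all genes 4.54% were called higher and 2.99% lower. Of the bipolar calls, Grm6 and Scgn were at 78.8 and 23.9 CPM in the ESC library of day 35. They were at 1.23 and 2.58 CPM in the iPSC library of that day, and Prkca was at 138 (ESC) and 76.1 CPM (iPSC). How the counts of these lists depend on single libraries was not tested. Of 7 forebrain and 7 neural crest and surface ectoderm markers that were tested, 0 were called in limma (7.53% of all genes). At an unadjusted p under 0.05 there were 2 and 0 (25.3% of all genes).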

How the data were processed

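The 16 libraries of GFP+ cells were used through 3 deposited tables. Reads were trimmed with Trimmomatic 0.36 and quantified by kallisto 0.42.5 against Ensembl release 84 cDNA, and tximport gene values (lengthScaledTPM) were turned into CPM with edgeR, per the series' design text. The gene table deposited by the authors holds log2(CPM + 1) squared minus 1, per its values, and was turned back into CPM. In 706 of 718 single-transcript genes (98.3%) the ratio of this CPM to the deposited TPM stayed constant, allowing 0.001 on the log2 scale. The estimated count and TPM tables deposited by the authors stop at 65535 transcripts, of which 65096 (99.3%) matched the GENCODE annotation of GRCm38. They hold all transcripts of 5 of the 8 genes; those of Calb2, Slc6a9 and Tfap2a were not analysed here.

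Differences were fitted with limma 3.58.1 (trend) in R 4.3.3 on log2(CPM + 1) over all 16 libraries, with source and day as factors, or day as a number and, for slope differences, its product with source. P-values were adjusted over 15202 genes (Benjamini-Hochberg), with a threshold of 0.05. Fold changes on this scale understate the change of low genes. In simulated counts for day 35 against day 18 (14748 genes), 14% of genes changed 2-fold and 90% of genes changed 4-fold were recovered, with 5 unchanged genes called. Changed genes were drawn from those with a mean of at least 5 CPM. Tfap2a (4.38 CPM), Ptf1a (2.16 CPM) and Slc32a1 (1.19 CPM) had lower means. Every simulated gene had the same dispersion, and expected levels did not differ among libraries of a day. The recovered shares therefore do not tell how often changes of the 8 genes would be called. Alternatives included edgeR 4.0.16 and DESeq2 1.42.0 on summed estimated counts rounded to whole numbers, a pseudocount of 0.1, array weights, a replicate block and each library left out. The relation to Nrl, tested by permutation, and the counts of listed genes without single libraries were added after the data were seen.

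The 8 genes and the other lists were chosen with earlier results of these data known. All 8 genes were named. From each other list the called genes were named (up to 6, largest change first), or else the 3 of highest mean, with 10 landmark genes; for likeness, the 3 genes of highest Pearson r; and transcripts with a mean of at least 0.5 TPM. Some genes that this rule gives were left out of the text.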

Additional observations from a re-analysis of the deposited data

Results flagged for a closer look

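Within days 18 and 21, 16 sets of library values (8 genes, 2 days) were checked for a single value far from the others, and 2 stood out, where chance gives about 1 in 20. In the day 21 library ESC 3, Gad1 was at 94.0 CPM, and its gap to the next value was 0.864 of the whole range of the 4 libraries on the log2(CPM + 1) scale. In the day 21 library ESC 1, Slc32a1 was at 2.44 CPM, with a gap of 0.988 of the range.

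In 4 of 32 comparisons of a later day with day 18, every ESC library moved one way and every iPSC library the other. The share of all genes that meet this rule was not measured, so the count cannot be read as unusual. Tfap2a differed by 0.70 in ESC and -1.66 in iPSC at day 28, a gap of 2.36 in mean log2(CPM + 1), and by 0.96 and -2.21 at day 35, a gap of 3.17. At day 35 Tfap2b differed by 1.76 and -4.32, a gap of 6.08, and Slc32a1 by 1.38 and -1.19, a gap of 2.57. These gaps, with 1 library per source at the later day, were not tested; the differences of slopes over all days did not pass for these genes (limma, adjusted p = 0.443 for Tfap2a, 0.517 for Tfap2b and 0.646 for Slc32a1).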

How the results depend on the processing

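The count of the 8 genes called, 0 in each comparison, became 2 with a replicate block at day 35 (Ptf1a and Slc6a9; 19.4% of all genes), day 28 and day 25 (both Gad1 and Slc6a9; 15.9% and 14.2%) and for the slope (Ptf1a and Slc6a9; 20.1%). The block changed no other count of the 8. Same-numbered ESC libraries of days 18 and 21 correlated in their deviations at 0.31, 0.06 and 0.25, and iPSC libraries of days 18 and 25 at 0.38 and 0.38; 4 of these 5 pairs correlated best by number, a hint from the data only, and library 2 of ESC did not and was under 0.1, so the numbers were not taken to pair the libraries. With array weights the count was 3 at day 28, 8 at day 25 and 8 at day 21, where 37.4, 62.8 and 39.7% of all genes were called. It was 1 with edgeR and with DESeq2 at day 35 and for the slope (13.6% and 21.7% of all genes for the slope), and 3 for the slope in iPSC libraries alone. Leaving out each library gave 0 to 1 at day 35, at day 25 and for the slope, and 0 elsewhere. The causes were not tested. Of 192 such counts 176 stayed at 0.

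Of 1478 refitted differences of single genes, 67 changed sign, and none of these was called in the reported fit. Slc32a1 turned to -0.43 at day 35 and -0.028 per day with a pseudocount of 0.1, to -0.066 and -0.0070 with the replicate block, to -0.18 and -0.018 with edgeR, to -0.34 and -0.030 with DESeq2, to -1.19 and -0.069 in iPSC alone, and its slope to -0.047 with array weights. Without the low-Nrl pair Gad2 turned to 0.41, 0.55, 0.14 and 0.16 at days 35, 28, 25 and 21 and to 0.027 per day. Without the pair that stood apart in Y-linked genes it turned to 0.10 and 0.25 at days 35 and 28 and to 0.012 per day, the slope of Tfap2a to 0.010 and Slc6a9 between sources to -0.12. In ESC alone Tfap2a, Tfap2b, Gad2 and Calb2 turned to 0.96, 1.76, 1.48 and 0.57 at day 35 and to 0.073, 0.11, 0.10 and 0.00064 per day. At day 28 Tfap2a, Tfap2b, Ptf1a and Gad2 turned to 0.70, 0.26, 0.18 and 1.46, and at day 25 Gad2 to 0.063. In iPSC alone Gad1 turned to -0.066 at day 21. Array weights turned Slc6a9 between sources to -0.19 and the slope difference of Calb2 to 0.021, and edgeR that of Gad1 to 0.029.

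Leaving out each library gave, at day 35, -1.92 to 0.77 for Tfap2a, -3.83 to 1.43 for Tfap2b, -1.84 to 0.95 for Gad2, -1.05 to 1.28 for Slc32a1 and -3.34 to 0.69 for Calb2. At day 28 it gave -1.29 to 0.45 for Tfap2a, -1.99 to 0.022 for Ptf1a and -1.49 to 0.91 for Gad2, and at day 21 -0.066 to 1.08 for Gad1. Between sources it gave -0.51 to 0.11 for Ptf1a, -0.076 to 0.35 for Slc6a9 and -1.10 to 0.013 for Calb2. Slopes ran from -0.082 to 0.016 for Tfap2a, -0.19 to 0.0057 for Tfap2b, -0.080 to 0.018 for Gad2 and -0.063 to 0.022 for Slc32a1, and slope differences from -0.17 to 0.14 for Gad1, -0.041 to 0.12 for Slc6a9 and -0.19 to 0.077 for Calb2. Depth limits Slc32a1 and late Ptf1a, whose low values are near 3 counts. All-gene counts moved by over 1.5 times in 79 of 192 refits.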
